A study of Mus musculus with 21 samples.

Results

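The genes described here are 9 genes of retinoic acid metabolism and response, out of 18193 genes tested on Affymetrix Mouse 430 2.0 arrays. They were chosen by gene symbol, with earlier results of these data known. Each is read by its most variable probe set, the one whose SD over the 21 arrays was highest. The SD of each of the 9 exceeded that of 96.8 to 99.9% of genes. Counts of the 9 set beside the share of all genes are therefore descriptions and not tests. All 9 were found. Retinoic acid (RA) is made from retinol, which enters some cells through the membrane receptor Stra6, is oxidised to retinal, and is then oxidised to RA by Aldh1a2. Cyp26a1 and Cyp26b1 are the P450 enzymes that break RA down, and Dhrs3 is a reductase that turns retinal back into retinol, so the 3 are grouped here as degrading enzymes. Crabp1 and Crabp2 bind RA inside the cell, Rarb is a nuclear RA receptor whose own gene is a textbook RA target, and Tgm2, tissue transglutaminase, is a response gene known from other cell types. In the embryo RA patterns the hindbrain and spinal cord, where it takes part in making motor neurons.

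The samples were neurons differentiated from mouse embryonic stem cells and purified after their last division, 3 biological replicates in each of 7 groups. The labels call the engineered lines NesE-Olig2, NesE-Nkx2.2 and NesE-Lmx1a, in which the nestin enhancer, active in neural progenitors, drives the named factor. The RA groups were the Olig2 line at day 8 with sonic hedgehog (SHH) and RA, the Nkx2.2 line at day 10 with SHH and RA, and wild type cells at day 8 with RA. The FGF8 groups were the Lmx1a line at day 14 and at day 10 and the Nkx2.2 line at day 10, all with SHH and FGF8, and wild type cells at day 10 with FGF8. For wild type cells the labels differ on SHH, since titles name it and source names do not. Line and SHH may therefore not be separable wherever a line is set against wild type cells. RA and day cannot be told apart between wild type RA and wild type FGF8 cells, nor can line and day between the Nkx2.2 line under RA and wild type RA cells.

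Each value below is a log2 signal as deposited, centred on the median of its probe set over 27 arrays, so values can be compared between groups and not between genes. A log2 fold change is the difference between the means of 3 arrays per group, given with its standard error. A gene was called, and is said to rise or fall, at a Benjamini-Hochberg adjusted p under 0.05 from limma over all 18193 genes together with a log2 fold change of at least 1 in size. The number of arrays limits the precision. Since RNA came from many cells, a lower share of cells that express a gene and less RNA per cell cannot be told apart. Olig2, Nkx2-2 and Lmx1a were each higher in their own lines than in wild type cells, and Olig2 also read 4.89 on the third day 10 array of the Lmx1a line. By the signal of the bioC controls the arrays fell into 2 apparent batches of 9 (A) and 12 (B). To batch A belonged the whole Lmx1a group of day 10, and replicates 1 and 2 each from the Olig2 line, the day 14 Lmx1a group and wild type FGF8 cells.

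The promoters of 3 of these genes are shown first, because RA receptors are known to bind direct repeats of a short half-site and because these genes include the largest rises described below. The windows are from RefSeq (GRCm38.p6) and run from 250 bases before to 50 bases after the transcript start, 5′ to 3′ along the gene. Capitals mark a match to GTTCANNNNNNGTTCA on either strand, the repeat with a spacing of 5 bases between hexamers (DR5). The Rarb window is chr14:16575427-16575726 on the minus strand, the Cyp26a1 window chr19:37697558-37697857 on the plus strand, and the Cyp26b1 window chr6:84593761-84594060 on the minus strand.
Rarb: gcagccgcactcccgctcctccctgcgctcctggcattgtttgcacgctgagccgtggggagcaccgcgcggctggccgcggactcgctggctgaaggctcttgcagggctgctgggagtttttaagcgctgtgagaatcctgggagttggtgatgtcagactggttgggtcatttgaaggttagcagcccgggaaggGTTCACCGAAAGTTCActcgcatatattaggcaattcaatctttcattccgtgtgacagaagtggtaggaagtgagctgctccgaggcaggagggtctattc
Cyp26a1: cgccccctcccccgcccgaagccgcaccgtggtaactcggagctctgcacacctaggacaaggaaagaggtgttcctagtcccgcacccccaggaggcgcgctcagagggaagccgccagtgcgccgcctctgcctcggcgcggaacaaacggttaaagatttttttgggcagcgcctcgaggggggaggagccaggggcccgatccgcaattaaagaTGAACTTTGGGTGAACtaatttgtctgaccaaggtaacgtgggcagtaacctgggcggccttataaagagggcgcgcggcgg
Cyp26b1: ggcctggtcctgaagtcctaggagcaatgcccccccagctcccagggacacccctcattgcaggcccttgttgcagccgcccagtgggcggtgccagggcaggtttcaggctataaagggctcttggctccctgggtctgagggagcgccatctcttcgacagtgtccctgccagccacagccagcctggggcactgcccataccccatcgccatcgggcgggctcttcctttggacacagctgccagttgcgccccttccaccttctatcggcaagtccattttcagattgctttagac
In Rarb the match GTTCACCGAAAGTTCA lay 52 to 37 bases before the start. In Cyp26a1 the match lay 32 to 17 bases before the start and on the opposite strand to the gene. Windows were at hand for 7 of the 9 genes, 12 windows in all, and the other two genes are Crabp2 and Tgm2. Besides this spelling, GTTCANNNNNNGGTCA, GGTCANNNNNNGTTCA and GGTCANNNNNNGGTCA were searched, and the same 4 pairs of half-sites with 3 bases in place of 6 (DR2). Neither Cyp26b1, Dhrs3, Crabp1, Stra6 nor Aldh1a2 held any of these letters in these windows, and no DR2 was found in any of the 7. Over all promoter windows, 25 of 32851 (0.0761%) held the spelling found in Rarb and Cyp26a1, and 81 (0.247%) held any of the 4 DR5 spellings.

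All 3 degrading enzymes rose in the Olig2 line against wild type RA cells, and by more than any other of the 9 genes. Cyp26a1 read 8.20, 8.58 and 7.18 on the arrays of the Olig2 line, against -0.032, -0.032 and -0.025 in wild type RA cells. Its log2 fold change was 8.01 ± 0.25 (adjusted p = 1.36e-11, limma). Cyp26b1 read 8.33, 8.30 and 8.48 in the Olig2 line, against 0, 0.001 and 0.41 in wild type RA cells. It rose by 8.24 ± 0.43 log2 units (adjusted p = 6.16e-09, limma). Dhrs3 read 4.98, 4.90 and 5.04 in the Olig2 line, against -0.22, 0.066 and 0.32 in wild type RA cells, and rose by 4.92 ± 0.23 (adjusted p = 1.17e-09, limma). For each of the 3 enzymes every array of the Olig2 line lay above all 18 other arrays. None of these 3 calls was lost under any alternative whose fit held the gene. This includes the fit within batch B, which holds 1 array of the Olig2 line.

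Outside the Olig2 line Cyp26a1 stayed near its baseline. The highest other array was replicate 3 of wild type FGF8 cells at 0.78, and the other 17 arrays read between -0.042 and 0.13. On 17 of the 21 arrays it lay within 0.15 of the array's median over probe sets, a band that held 53.3 to 65.9% of probe sets on an array. Cyp26b1 had a second, lower level in wild type FGF8 cells, described below. Dhrs3 was second highest in the day 14 Lmx1a group, whose arrays read 1.17, 0.63 and 1.33, against -0.047, 0.66 and -0.21 on its day 10 arrays. That difference of 0.91 ± 0.23 had an adjusted p of 0.0245 (limma) but was under the fold threshold.

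**Figure D1:**
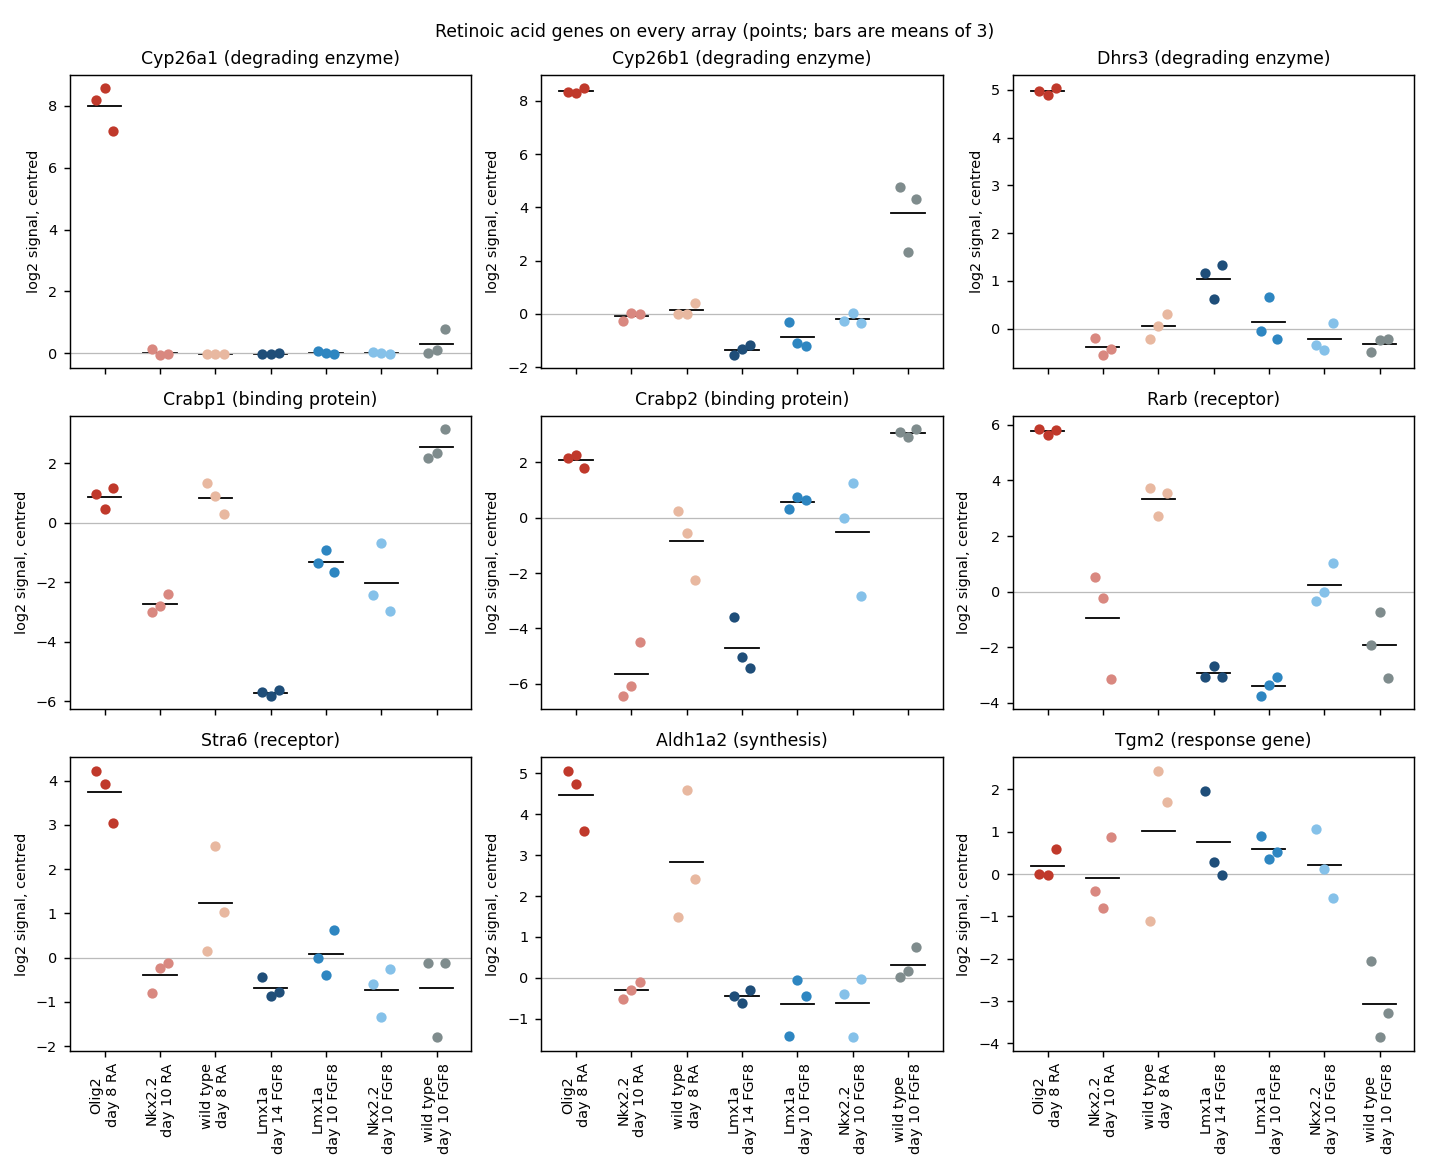
Log2 signal of the 9 genes, centred on the median of each probe set, on all 21 arrays, with 1 panel per gene, 1 point per array and a bar at the mean of 3 arrays. The Olig2 line stands alone for Cyp26a1, Cyp26b1 and Dhrs3, with means of 7.99, 8.37 and 4.97, whereas Crabp1 and Crabp2 are lowest in the Lmx1a line at day 14 and the Nkx2.2 line under RA, and Tgm2 is lowest in wild type FGF8 cells.

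Over the whole set 6 of 9 genes rose and 0 fell in the Olig2 line against wild type RA cells, where 5.50% of all 18193 genes rose and 4.85% fell. The median log2 fold change was 2.50 over the 9 genes and 0.043 over all genes. The nuclear receptor Rarb read 5.84, 5.63 and 5.82 in the Olig2 line, against 3.72, 2.73 and 3.56 in wild type RA cells. It rose by 2.43 ± 0.74 (adjusted p = 0.0341, limma). For Rarb, unlike the enzymes, wild type RA cells had the second highest mean of the 7 groups. Stra6, the retinol uptake receptor, read 4.23, 3.93 and 3.04 in the Olig2 line, against 0.15, 2.53 and 1.02 in wild type RA cells. It rose by 2.50 ± 0.56 (adjusted p = 0.00614, limma), with no overlap between the arrays.

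The RA-binding protein Crabp2 read 2.15, 2.26 and 1.78 in the Olig2 line, against 0.22, -0.55 and -2.24 in wild type RA cells, and rose by 2.92 ± 0.85 (adjusted p = 0.0266, limma). Crabp1 overlapped between these groups, at 0.98, 0.45 and 1.18 in the Olig2 line and 1.33, 0.90 and 0.31 in wild type RA cells, and was not called, with a 95% interval of the difference from -0.95 to 0.99. Aldh1a2, which makes RA, read 5.07, 4.75 and 3.59 in the Olig2 line, against 1.49, 4.61 and 2.42 in wild type RA cells. The arrays overlapped, and the difference of 1.63 ± 0.63 was not called (adjusted p = 0.0920, limma). Tgm2 overlapped too, at 0, -0.012 and 0.59 in the Olig2 line and -1.12, 2.44 and 1.71 in wild type RA cells.

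The calls of Rarb and Crabp2 here changed with the batch and with single arrays. With the batch as a block the adjusted p was 0.168 for Rarb and 0.117 for Crabp2 (limma). Rarb was not called when any of the 6 arrays compared was left out (adjusted p between 0.0554 and 0.126). Crabp2 was not called without replicate 2 or 3 of wild type RA cells or replicate 1 or 2 of the Olig2 line (adjusted p between 0.0566 and 0.110). Without replicate 2 of wild type RA cells Aldh1a2 was called, at 2.52 (adjusted p = 0.00470, limma).

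Other genes moved along the same arrays, and of 50 marker genes tested 4 rose and 7 fell in the Olig2 line. Of all genes, 5.50% rose and 4.85% fell there against wild type RA cells. The 4 somatic motor neuron genes Mnx1, Isl1, Lhx3 and Chat all rose in the Olig2 line. Their list means were 5.01 to 5.42 per array, against 0.19 to 0.36 in wild type RA cells. The wild type RA mean joins genes far apart, with Lhx3 at 4.97, Isl1 at -4.78, Mnx1 at 1.02 and Chat at -0.055. Mesenchyme and meninges genes differed among wild type RA replicates, with means over 7 genes of -0.28, 3.16 and 2.40 in replicates 1 to 3, whereas the Olig2 line ran from -0.96 to 0.0029. Of those 7 genes, the collagen gene Col1a2 (-4.44) and the matrix gene Dcn (-3.96) were lower in the Olig2 line, and the other 5 were not called. The pan-neuronal genes Elavl3 (-1.36) and Rbfox3 (-1.88), the astroglia gene Aldh1l1 (-2.83), the progenitor gene Pax6 (-3.53) and the trophoblast gene Plac1 (-1.89) were lower too. Stra6, Aldh1a2 and Tgm2 were ordered across the 3 wild type RA replicates as that list mean was, with replicate 1 lowest and replicate 2 highest. The part of these genes in the results was not tested. With wild type RA cells represented by replicate 1 alone, the 3 enzymes, Stra6 and Aldh1a2 (2.98, adjusted p = 0.00631, limma) were called in the Olig2 line, and Crabp2 (1.84, adjusted p = 0.421) and Rarb (2.04, adjusted p = 0.309) were not.

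The Nkx2.2 line received RA too, and none of its degrading enzymes was called against the same line under FGF8. Cyp26a1 read 0.13, -0.042 and -0.0093 under RA, against 0.045, 0.0054 and -0.026 under FGF8. The 95% interval of the difference was -0.52 to 0.56 for Cyp26a1, -0.78 to 1.05 for Cyp26b1 and -0.65 to 0.31 for Dhrs3. Of the 9 genes, 0 rose and 1 fell under RA, where 2.66% of all genes rose and 1.65% fell. The gene that fell was Crabp2, at -6.44, -6.07 and -4.48 under RA, against 0, 1.24 and -2.83 under FGF8. Its log2 fold change was -5.13 ± 0.85 (adjusted p = 0.00172, limma), and the arrays did not overlap. Rarb spread widely under RA, at 0.53, -0.21 and -3.14, against -0.34, 0 and 1.05 under FGF8, and was not called (interval -2.75 to 0.40). Crabp2 was not called within batch B, which holds all 6 of these arrays (adjusted p = 0.0609), nor with only these arrays in the fit (adjusted p = 0.115). Of the 50 marker genes, 1 rose and 3 fell under RA. The motor neuron gene Isl1 (-7.20) and the pan-neuronal genes Elavl3 (-1.32) and Tubb3 (-1.30) were lower and Aldh1l1 (2.27) was higher, and their part in the Crabp2 result was not tested.

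Against wild type RA cells the Nkx2.2 line under RA was lower in the binding proteins, the receptors and Aldh1a2. Of the 9 genes, 0 rose and 5 fell, where 8.84% of all genes rose and 9.16% fell. The median log2 fold change was -1.62 over the 9 genes and 0.014 over all genes. Crabp1 read -3.01, -2.80 and -2.41 in the Nkx2.2 line under RA, against 1.33, 0.90 and 0.31 in wild type RA cells, and its log2 fold change was -3.58 ± 0.45 (adjusted p = 3.96e-05, limma). Crabp2 differed by -4.80 ± 0.85 (adjusted p = 0.000542, limma), with all its arrays at or below -4.48 in the Nkx2.2 line under RA and at or above -2.24 in wild type RA cells. Rarb differed by -4.28 ± 0.74 (adjusted p = 0.000462, limma). Aldh1a2 read -0.51, -0.31 and -0.10 in the Nkx2.2 line under RA and differed by -3.14 ± 0.63 (adjusted p = 0.00137, limma).

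Stra6 differed by -1.62 ± 0.56 (adjusted p = 0.0418, limma), the smallest of the 5 falls. Its call was lost when replicate 2 or 3 of wild type RA cells, or any of the 3 arrays of the Nkx2.2 line under RA, was left out (adjusted p between 0.0576 and 0.228), and without replicate 2 of wild type RA cells its difference was -0.97. Tgm2 was not called here, and was called at -2.18 without replicate 1 of wild type RA cells (adjusted p = 0.0289, limma). With wild type RA cells represented by replicate 1 alone, Stra6 (adjusted p = 0.825) and Aldh1a2 (adjusted p = 0.0589) were not called, while Crabp1, Crabp2 and Rarb were. The 3 degrading enzymes were not called in this comparison.

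In the Nkx2.2 line under RA 5 of the 50 marker genes were higher and 8 lower than in wild type RA cells. Of all genes, 8.84% were higher and 9.16% lower in this comparison. Of 8 pan-neuronal genes, Elavl3 (-3.06), Rbfox3 (-3.43) and Tubb3 (-1.33) were lower than in wild type RA cells and none was higher. The mean over the 8 ran from -1.08 to -0.58 in the Nkx2.2 line under RA, against 0.22 to 0.80 in wild type RA cells. Of 6 astroglia genes, the water channel Aqp4 (4.31) and the folate enzyme Aldh1l1 (2.02) were higher, with list means of 1.40 to 1.67 against -0.83 to 0.59. Of 4 endoderm genes Sox17 was higher (2.69), and list means were 2.04, 0.013 and 2.44 in replicates 1 to 3 of the Nkx2.2 line under RA, against -0.080 to -0.069 in wild type RA cells. Of the 4 motor neuron genes Lhx3 (-5.01), Isl1 (-1.85) and Mnx1 (-1.06) were lower, and list means were -1.80 to -1.53 against 0.19 to 0.36. In the Nkx2.2 line under RA Isl1 averaged -6.63, and Mnx1, Lhx3 and Chat averaged between -0.041 and -0.034. In wild type RA cells Lhx3 averaged 4.97 and Isl1 -4.78. Of 6 progenitor genes Sox2 (1.78) and Vim (1.32) were higher and Pax6 (-4.49) was lower, and Plac1 (-1.93) was lower as well. The part of these markers in the differences of the RA genes was not tested.

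Set directly against the Nkx2.2 line under RA, the Olig2 line was higher in 8 of 9 genes and lower in 0, where 6.94% of all genes were higher and 6.19% lower. These 2 groups differ in day as well as in line, which cannot be told apart. The differences were 7.96 for Cyp26a1, 8.44 for Cyp26b1 and 5.36 for Dhrs3. Among binding proteins and receptors they were 3.61 for Crabp1 (adjusted p = 4.02e-05), 7.72 for Crabp2 (adjusted p = 1.08e-05), 6.70 for Rarb (adjusted p = 1.12e-05) and 4.12 for Stra6 (adjusted p = 7.91e-05), all from limma. Aldh1a2 was higher by 4.77 (adjusted p = 5.73e-05, limma). Of the 50 marker genes 6 were higher, namely the 4 motor neuron genes, Elavl3 and Rbfox3, and 6 were lower, namely Aldh1l1, Aqp4, Col1a2, Dcn, Lum and Sox17. Tgm2 was the gene not called, and no call was lost when 1 array was left out. Within batch B, where the Olig2 line has 1 array, Stra6 and Aldh1a2 were not called (adjusted p = 0.0673 and 0.0947).

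**Figure D2:**
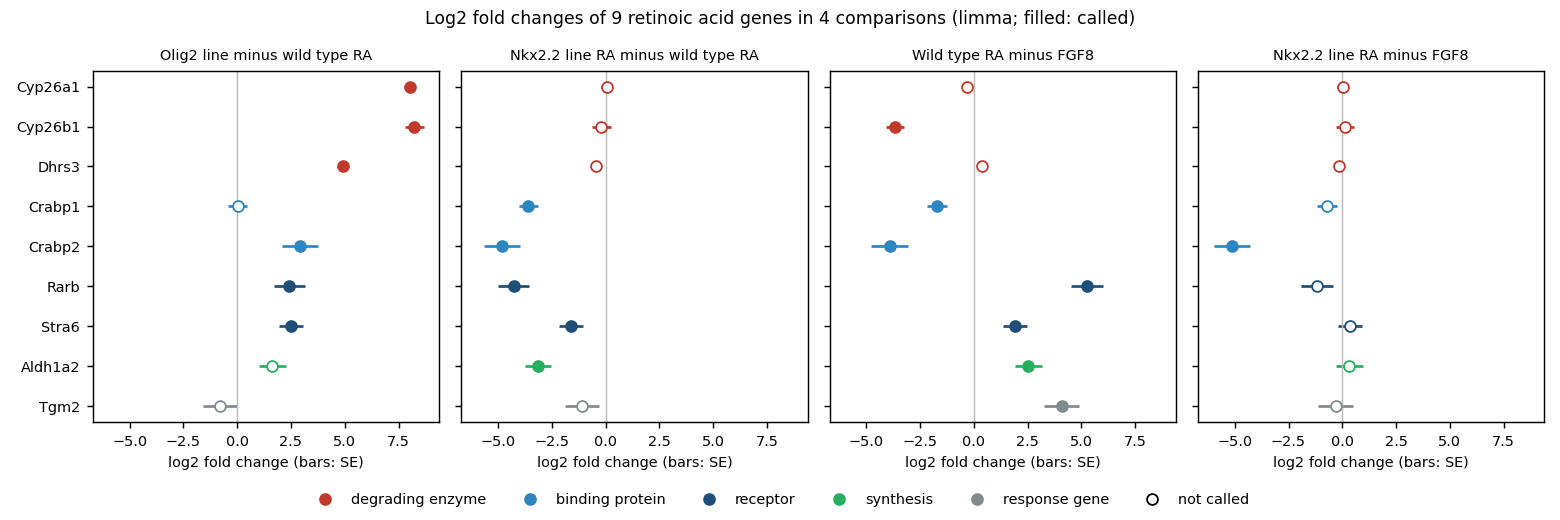
Log2 fold changes (x axis) of the 9 genes (rows) in 4 comparisons, with bars for the standard error, filled points for called genes and colours for the role of the gene. In the Olig2 line against wild type RA cells the 3 degrading enzymes lie at 4.92 to 8.24, apart from the binding proteins and receptors at 0.022 to 2.92. In the Nkx2.2 line under RA against wild type RA cells the enzymes lie at -0.44 to 0.055 and the binding proteins and receptors at -4.80 to -1.62.

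The mean of the degrading enzymes and that of the binding proteins and receptors followed different orders over the 7 groups. Genes within each of these sets differed from each other too. The mean of Cyp26a1, Cyp26b1 and Dhrs3 per array was 7.11 ± 0.19 in the Olig2 line and 0.054 ± 0.16 in wild type RA cells (SD, n = 3 each). It was 1.26 ± 0.47 in wild type FGF8 cells, where Cyp26b1 averaged 3.80, Cyp26a1 0.30 and Dhrs3 -0.31. In the other 4 groups the enzyme mean was between -0.24 and -0.10. The mean of Crabp1, Crabp2, Rarb and Stra6 was 3.11 ± 0.18 in the Olig2 line and 1.14 ± 0.41 in wild type RA cells (SD, n = 3 each). It was -2.43 ± 0.10 in the Nkx2.2 line under RA and -3.51 ± 0.28 in the Lmx1a line at day 14 (SD, n = 3 each). It thus spanned several log2 units among groups whose enzyme mean lay near 0. In wild type FGF8 cells it was 0.76 ± 0.065 (SD, n = 3). There Crabp1 averaged 2.56 and Crabp2 3.07, but Rarb -1.91 and Stra6 -0.68. The enzyme mean exceeded the binding and receptor mean by 3.87 to 4.20 on arrays of the Olig2 line and was below it by 0.43 to 1.44 on arrays of wild type RA cells. The excess was 3.07 to 3.78 in the Lmx1a line at day 14 and 2.15 to 2.40 in the Nkx2.2 line under RA. In both of these groups the enzyme mean lay near 0. In the Lmx1a line at day 14 that mean joins Cyp26b1 at -1.33, Dhrs3 at 1.04 and Cyp26a1 at -0.013. On arrays of the other groups the excess was between 0.047 and 1.16. These means are over genes centred one by one, so the differences compare groups and not the abundance of enzymes and receptors.

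**Figure D3:**
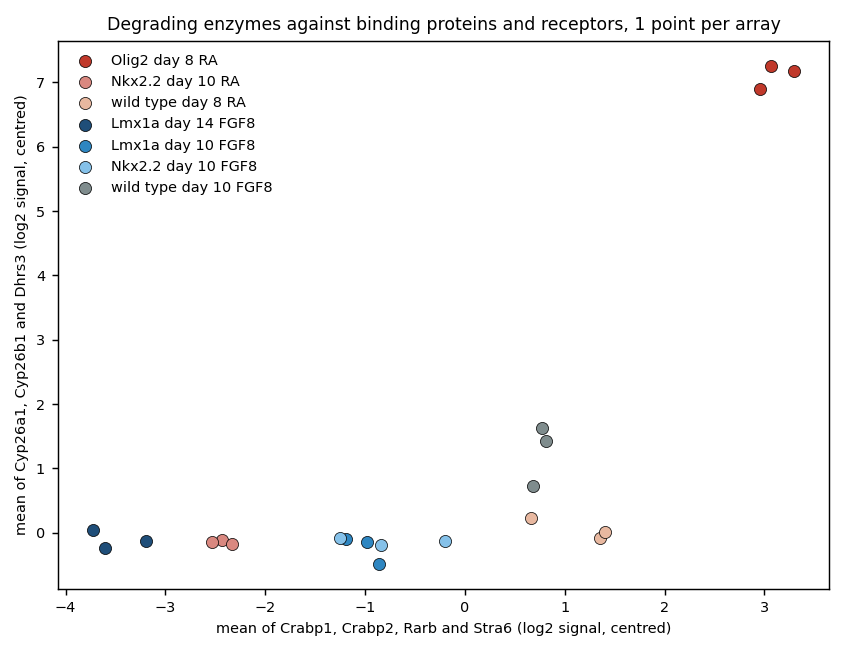
Each point is 1 of the 21 arrays, with the mean log2 signal of Crabp1, Crabp2, Rarb and Stra6 on the x axis and that of Cyp26a1, Cyp26b1 and Dhrs3 on the y axis, both centred. The Olig2 line sits alone at 6.90 to 7.26 on the y axis, wild type FGF8 cells lie at 0.73 to 1.62, and the other groups run along the x axis near 0.

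In wild type cells, the set differed in both directions between RA at day 8 and FGF8 at day 10. Of the 9 genes, 4 rose and 3 fell, where 4.29% of all genes rose and 3.11% fell. Rarb read 3.72, 2.73 and 3.56 in wild type RA cells, against -1.90, -0.73 and -3.10 in wild type FGF8 cells, a rise of 5.25 ± 0.74 (adjusted p = 0.000422, limma). Aldh1a2 rose by 2.53 ± 0.63 (adjusted p = 0.0164, limma), with wild type FGF8 arrays at 0.026, 0.16 and 0.74. Stra6 rose by 1.92 ± 0.56 (adjusted p = 0.0368, limma), with wild type FGF8 arrays at -0.12, -1.80 and -0.13. Tgm2 rose by 4.08 ± 0.79 (adjusted p = 0.00403, limma), although replicate 1 of wild type RA cells lay at -1.12.

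The 3 that fell were Cyp26b1, Crabp1 and Crabp2. Cyp26b1 read 0, 0.001 and 0.41 in wild type RA cells, against 4.76, 2.33 and 4.31 in wild type FGF8 cells, a log2 fold change of -3.66 ± 0.43 (adjusted p = 0.000104, limma). Crabp2 differed by -3.92 ± 0.85 (adjusted p = 0.00766, limma), with wild type FGF8 arrays tightly at 3.10, 2.91 and 3.19. Crabp1 differed by -1.71 ± 0.45 (adjusted p = 0.0237, limma), with wild type FGF8 arrays at 2.17, 2.36 and 3.14. Cyp26a1 and Dhrs3 were not called.

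Markers differed between the same arrays, with 7 of the 50 higher and 3 lower in wild type RA than in wild type FGF8 cells. Of all genes, 4.29% were higher and 3.11% lower. The motor neuron genes Lhx3 (4.96) and Mnx1 (1.03) were higher, and Isl1 (-4.92) was lower. Among pan-neuronal genes Rbfox3 (2.43) and Elavl3 (1.25) were higher and Map2 (-2.11) was lower. The astroglia genes Slc1a3 (3.20) and Aldh1l1 (2.97) and the mesenchyme gene Dcn (4.89) were higher, and the progenitor gene Sox2 (-1.13) was lower. The part of these markers in the differences of the RA genes was not tested.

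Several of these wild type calls rested on single arrays. Stra6 was lost without any array of wild type FGF8 cells or without replicate 2 or 3 of wild type RA cells (adjusted p between 0.0512 and 0.180), and its difference was 1.27 without replicate 2 of wild type RA cells. Aldh1a2 was lost without replicate 1 of wild type FGF8 cells (adjusted p = 0.0628) or replicate 2 of wild type RA cells (1.65, adjusted p = 0.0642). Crabp1 was lost without replicate 3 of wild type FGF8 cells (adjusted p = 0.104) or replicate 2 (adjusted p = 0.0650) or 3 (adjusted p = 0.0824) of wild type RA cells. With wild type RA cells represented by replicate 1 alone, 2 of the 7 calls held, those of Rarb and Cyp26b1.

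Whether the RA against FGF8 difference itself differed between the Nkx2.2 line and wild type cells was tested as an interaction. It was called for 3 of the 9 genes, higher for 1 and lower for 2, where 1.78% of all genes were higher and 2.60% lower. For Rarb the interaction was -6.42 ± 1.04 (adjusted p = 0.00275, limma). Its RA minus FGF8 difference was -1.18 in the Nkx2.2 line, not called, and 5.25 in wild type cells. For Cyp26b1 it was 3.80 ± 0.61 (adjusted p = 0.00259, limma), from differences of 0.13 in the Nkx2.2 line and -3.66 in wild type cells. For Tgm2 it was -4.39 ± 1.12 (adjusted p = 0.0357, limma), and this call was lost without replicate 1 or 2 of the Nkx2.2 line under RA or under FGF8, without replicate 2 or 3 of wild type RA cells, or without replicate 3 of wild type FGF8 cells (adjusted p between 0.0559 and 0.0848). With the mean of all 6 Tgm2 probe sets its interaction was -2.36 and was not called (adjusted p = 0.118). The interaction was also called for 5 of the 50 marker genes, all lower, namely Lhx3 (-4.98), Dcn (-4.82), Rbfox3 (-2.82), Elavl3 (-2.57) and Isl1 (-2.28). The wild type side of the interaction differs in day and the Nkx2.2 side does not.

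Under FGF8 at day 10 both engineered lines were lower than wild type cells in Cyp26b1 and Crabp1 and higher in Tgm2. The 2 comparisons share the wild type arrays. In the Lmx1a line 1 of 9 genes was higher and 2 were lower, where 1.96% of all genes were higher and 1.36% lower. In the Nkx2.2 line 1 was higher and 3 were lower, where 2.83% of all genes were higher and 1.71% lower. Cyp26b1 read -0.29, -1.11 and -1.22 in the Lmx1a line and -0.27, 0.035 and -0.35 in the Nkx2.2 line, against 4.76, 2.33 and 4.31 in wild type FGF8 cells. Its log2 fold change was -4.67 ± 0.43 in the Lmx1a line (adjusted p = 2.31e-05) and -4.00 ± 0.43 in the Nkx2.2 line (adjusted p = 4.55e-05, limma). With only the arrays compared in the fit neither was called (adjusted p = 0.0632 in the Lmx1a line and 0.0517 in the Nkx2.2 line). Replicate 2, the lowest wild type FGF8 array for Cyp26b1, was also lowest for the mean of 6 neural progenitor genes, which was 1.49, -0.26 and 1.77 in replicates 1 to 3. Of those 6 genes Pax6 was lower in both lines (-4.12 in the Lmx1a line and -5.20 in the Nkx2.2 line), and the other 5 were not called. Of the other markers, Slc1a3 (3.21), the mesenchyme gene Twist1 (3.24) and the endothelial gene Kdr (1.66) were higher in the Lmx1a line, and Aqp4 (4.53), Aldh1l1 (2.72) and Dcn (4.22) were higher in the Nkx2.2 line. The part of the markers in the results under FGF8 was not tested.

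Crabp1 read -1.35, -0.92 and -1.65 in the Lmx1a line and -2.42, -0.68 and -2.96 in the Nkx2.2 line, against 2.17, 2.36 and 3.14 in wild type FGF8 cells. It differed by -3.86 ± 0.45 in the Lmx1a line (adjusted p = 0.000214) and -4.58 ± 0.45 in the Nkx2.2 line (adjusted p = 2.22e-05, limma). Crabp2 was lower by a called difference in the Nkx2.2 line, at -3.60 ± 0.85 (adjusted p = 0.0179), and in the Lmx1a line its difference of -2.50 was not called (adjusted p = 0.118, limma), although the Lmx1a arrays at 0.32, 0.73 and 0.63 lay below all wild type FGF8 arrays. The Crabp2 call in the Nkx2.2 line was lost without replicate 1 or 3 of wild type FGF8 cells (adjusted p = 0.0612 and 0.0617), in the fit with a batch block (adjusted p = 0.0779), and without 3 arrays that stood apart (adjusted p = 0.0630). Those 3 arrays are the first replicates of the day 10 Lmx1a group and of the Nkx2.2 FGF8 group, and replicate 2 of wild type FGF8 cells.

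Rarb differed between the 2 lines under FGF8 at day 10, whose arrays lie in different apparent batches. The Lmx1a line read -3.75, -3.35 and -3.05 and the Nkx2.2 line -0.34, 0 and 1.05, with a log2 fold change of -3.62 ± 0.74 (adjusted p = 0.00764, limma). It was the 1 gene of the 9 called in this comparison, where 5.07% of all genes were called. Of the 50 marker genes Twist1 (2.67) and Kdr (1.40) were higher and Aqp4 (-4.52), Dcn (-4.64) and Aldh1l1 (-2.32) lower in the Lmx1a line, and their part in the Rarb result was not tested. Against wild type FGF8 cells, whose arrays ran from -3.10 to -0.73, Rarb was not called in either line, at -1.48 in the Lmx1a line (adjusted p = 0.345) and 2.14 in the Nkx2.2 line (adjusted p = 0.103, limma). In the Nkx2.2 line it was called at 2.74 without replicate 2 of wild type FGF8 cells (adjusted p = 0.0394).

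Between day 14 and day 10 of the Lmx1a line both binding proteins fell. Crabp1 read -5.69, -5.82 and -5.62 at day 14, against -1.35, -0.92 and -1.65 at day 10, a log2 fold change of -4.40 ± 0.45 (adjusted p = 4.31e-05, limma). Crabp2 read -3.59, -5.05 and -5.44 at day 14, against 0.32, 0.73 and 0.63 at day 10, a log2 fold change of -5.25 ± 0.85 (adjusted p = 0.00163, limma). These were 2 of the 9 genes, and 0 rose, where 1.28% of all genes fell and 2.96% rose. Dhrs3 passed the fold threshold without replicate 2 of day 10 (1.17) or replicate 2 of day 14 (1.11). Of the 50 marker genes Aldh1l1 (2.63, adjusted p = 0.0232) was higher at day 14 and Isl1 (-3.25, adjusted p = 0.000218) was lower. Astroglia list means were 0.30 to 0.93 at day 14 and -0.50 to 0.0051 at day 10, without overlap. Motor neuron list means were -0.94 to -0.74 at day 14 and -0.054 to 0.15 at day 10, also without overlap. That difference follows Isl1, which averaged -3.17 at day 14 and 0.072 at day 10. The other motor neuron genes, Mnx1, Lhx3 and Chat, averaged between -0.052 and 0.016 on both days. Pan-neuronal list means overlapped, at -0.80 to -0.13 at day 14 and -0.52 to 0.20 at day 10. The part of these markers in the falls of the binding proteins was not tested.

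Tgm2 had 6 probe sets, and they differed in size of response. The probe set used above was lowest in wild type FGF8 cells, at -2.06, -3.86 and -3.28, and neighbouring groups overlapped among the other 6 groups. Over the 6 probe sets the difference between wild type RA and wild type FGF8 cells ran from -0.062 to 4.08, with a median of 2.33. The Lmx1a line at day 10 exceeded wild type FGF8 cells by 0.054 to 3.66, with a median of 2.08. In the fits reported above Tgm2 rose by 3.66 ± 0.79 in the Lmx1a line (adjusted p = 0.0149) and by 3.27 ± 0.79 in the Nkx2.2 line (adjusted p = 0.0211, limma), both against wild type FGF8 cells. With the mean of all 6 probe sets the Lmx1a difference was 2.04 and was not called (adjusted p = 0.0622), and it was also lost without replicate 3 of wild type FGF8 cells (adjusted p = 0.0535) and without the 3 arrays that stood apart (adjusted p = 0.115). The Nkx2.2 difference was lost without replicate 2 or 3 of wild type FGF8 cells or replicate 1 or 2 of the Nkx2.2 line (adjusted p between 0.0567 and 0.113), and without the 3 arrays that stood apart (adjusted p = 0.201).

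**Figure D4:**
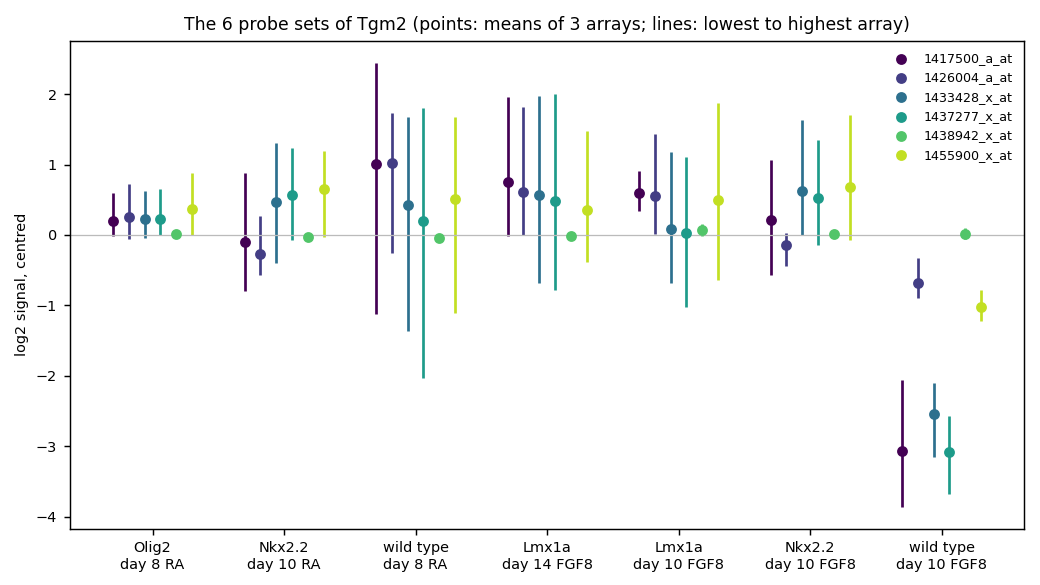
Log2 signal, centred, of the 6 probe sets of Tgm2 in the 7 groups, with points at means of 3 arrays and lines from the lowest to the highest array. Of the 6, 5 are lowest in wild type FGF8 cells, and the other one stays near 0 in every group.

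With the apparent batch as a block, the number of the 9 genes called was 4 in the Olig2 line against wild type RA cells, 4 in the Nkx2.2 line under RA against wild type RA cells, 3 in the Nkx2.2 line under FGF8 against wild type FGF8 cells, 5 in wild type RA against wild type FGF8 cells and 2 in the interaction, and was the same in the other 5 comparisons. Over all 18193 genes this block gave 711 higher and 668 lower in the Olig2 line (1001 and 883 without it). In the Nkx2.2 line it gave 1589 and 1659 (1608 and 1667) under RA, and 436 and 229 (514 and 311) under FGF8. Wild type RA against wild type FGF8 cells gave 519 and 298 (780 and 566), and the interaction 234 and 342 (323 and 473). Within batch A the Lmx1a line can be compared with wild type FGF8 cells, and day 14 with day 10. There 3 and 2 of the 9 genes were called. In the Lmx1a line against wild type FGF8 cells these 3 included Crabp2 (-2.44, adjusted p = 0.0413) and no longer Tgm2 (adjusted p = 0.0536). Within batch B, with 1 array each of the Olig2 line and of wild type FGF8 cells, 3 genes were called in the Olig2 line against wild type RA cells, the 3 enzymes, and 2 in wild type RA against wild type FGF8 cells. A lone array is assumed there to vary like the other groups. With only the arrays compared in the fit, Crabp2 was gained in the Lmx1a line against wild type FGF8 cells (adjusted p = 0.0127), and Crabp2 (adjusted p = 0.158) and Tgm2 (adjusted p = 0.0667) were lost in the Nkx2.2 line. In the same setting, Rarb (adjusted p = 0.0585), Stra6 (adjusted p = 0.192) and Aldh1a2 (adjusted p = 0.0737) were lost in the Nkx2.2 line under RA against wild type RA cells, and Crabp2 (adjusted p = 0.0521) and Stra6 (adjusted p = 0.0800) in the Olig2 line. Crabp1, Stra6, Aldh1a2 and Tgm2 were lost in wild type RA against wild type FGF8 cells (adjusted p between 0.0650 and 0.253), as was the interaction of Tgm2 (adjusted p = 0.101). The Lmx1a line at day 10 and the Nkx2.2 line under FGF8 lie in different batches, so batch and line cannot be told apart within a batch, and Rarb was still called between them with the batch as a block.

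Where 0 of the 9 genes are given in a direction, limma's unadjusted p under 0.05 also gave 0, except at day 14 of the Lmx1a line against day 10, where it gave 1 higher gene, Dhrs3. The order of the groups separated the genes further. For Cyp26a1, Cyp26b1, Dhrs3, Rarb, Stra6 and Aldh1a2 the Olig2 line had the highest mean of the 7 groups, and except for Aldh1a2 its arrays did not overlap those of the next group. For Crabp1 and Crabp2 wild type FGF8 cells were highest, without overlap with the Olig2 line, which was next. Crabp1 was lowest in the Lmx1a line at day 14, without overlap with any other group. Crabp2 was lowest in the Nkx2.2 line under RA, whose arrays overlapped those of the Lmx1a line at day 14. Neighbours below the second place overlapped for Rarb from the Nkx2.2 line under FGF8 down to the Lmx1a line at day 10, and for Stra6 from wild type RA cells down.

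Correlations over the 21 arrays describe likeness only, since arrays of a group share their condition. Crabp1 and Crabp2 correlated at r = 0.82, and at 0.80 over the 18 arrays outside the Olig2 line. Cyp26a1 and Dhrs3 correlated at 0.95. Outside the Olig2 line Cyp26a1 read between -0.042 and 0.13 on 17 of the 18 arrays, so no correlation without that line is given for it. Stra6 and Aldh1a2 correlated at 0.92, and at 0.79 without it. Among 2067 variable genes, the one most like Crabp2 was the neurofilament gene Nefl (r = 0.95, and 0.95 without the Olig2 line), followed by Nefm (0.94). The genes most like Cyp26a1 were Crp (0.997), Adtrp (0.996) and Ecm1 (0.991). Shisa3 was most like Cyp26b1 (0.94, and 0.86 without the Olig2 line), and Mfsd2a came next (0.93, and 0.72 without it). Rarb was most like Sorl1 (0.91, and 0.89 without the Olig2 line). The motor neuron factor Lhx3 was also among its 3 closest (0.91, and 0.79 without that line). Hoxa7 led for both Stra6 (0.94, and 0.81 without the Olig2 line) and Aldh1a2 (0.96, and 0.93 without it). Dhrs3 was most like Syt6 (0.96, but 0.23 without the Olig2 line). Crabp1 was most like Dpf3 (0.89, and 0.90 without that line), and Tgm2 like Igfbp3 (0.79 with and without it).

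The rest of the RA pathway was read from a list. Of 42 further genes of RA synthesis, binding, receptors, coregulators and response, 35 were tested. In the Olig2 line against wild type RA cells 3 of the 35 rose and 0 fell, where 5.50% of all genes rose and 4.85% fell (3 were lower at an unadjusted p under 0.05), with a median log2 fold change of 0.041. The 3 were the orphan receptor Nr2f1 (1.20 ± 0.21, adjusted p = 0.00109), the retinol dehydrogenase Rdh11 (1.29 ± 0.28, adjusted p = 0.00543) and the coactivator Ncoa3 (1.40 ± 0.44, adjusted p = 0.0388), from limma. In the Nkx2.2 line under RA against wild type RA cells 4 of the 35 rose and 2 fell, where 8.84% of all genes rose and 9.16% fell. The plasma retinol carrier Rbp4 rose by 2.57 ± 0.48 (adjusted p = 0.000842), Foxa1, a forkhead factor, by 2.85 ± 0.45 (adjusted p = 0.000215), Dhrs7 by 2.60 and Dhrs4 by 1.80. The RA receptor gene Rara fell, with a log2 fold change of -2.24 ± 0.43 (adjusted p = 0.00111, limma), as did the orphan receptor gene Nr2f2, at -2.13.

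Under FGF8 at day 10, 2 of the 35 rose and 2 fell in each line against wild type cells. Of all genes 1.96% rose and 1.36% fell in the Lmx1a line, and 2.83% rose and 1.71% fell in the Nkx2.2 line. In the Lmx1a line Foxa1 (5.01 ± 0.45) and the retinoid X receptor gene Rxrg (2.50 ± 0.56) rose, and the homeobox genes Meis1 (-4.18 ± 0.81) and Meis2 (-5.24 ± 0.87) fell. In the Nkx2.2 line Foxa1 (3.17 ± 0.45) and Rbp4 (2.84 ± 0.48) rose, and Nr2f1 (-1.13 ± 0.21) and Rara (-1.68 ± 0.43) fell. Within the Nkx2.2 line, the retinol dehydrogenase gene Rdh10 was higher under RA than under FGF8 by 2.23 ± 0.51 (adjusted p = 0.0157, limma), the 1 called gene of the 35, where 2.66% of all genes were higher and 1.65% lower. Wild type RA cells exceeded wild type FGF8 cells in Rbp4 alone of the 35, by 1.76 ± 0.48 (adjusted p = 0.0267, limma), where 4.29% of all genes were higher and 3.11% lower. In the Lmx1a line at day 10 against the Nkx2.2 line under FGF8, 2 of the 35 were higher, namely Foxa1 and Rdh10. Lower were 2, Meis1 and Meis2, where 5.07% of all genes were called in either direction. These groups lie in different apparent batches. In the Olig2 line against the Nkx2.2 line under RA 4 of the 35 were higher, namely Ncoa3, Nr2f1, Rara and Fabp5, and 3 were lower, namely Foxa1, Rbp4 and Dhrs7, where 6.94% of all genes were higher and 6.19% lower. Day 14 against day 10 of the Lmx1a line and the interaction each gave 0 called genes of the 35 by limma. Of all genes 2.96% were higher and 1.28% lower at day 14, and 1.78% higher and 2.60% lower in the interaction. At an unadjusted p under 0.05, 2 of the 35 were higher and 2 lower at day 14. In the interaction 3 were higher and 3 lower.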

How the data were processed

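Total RNA of purified post-mitotic neurons was labelled with biotin and hybridised to Affymetrix Mouse 430 2.0 arrays, per the labels. The authors deposited log2 signals that GCRMA produced, per the submitters' processing notes (version not given there). The values show that every probe set was then centred by subtracting a median over 27 arrays, of which 21 were used here, so levels and a filter on low signal could not be had, and genes with little signal stayed in. All 9 genes are among those tested. Of 45101 probe sets 64 were controls, 34945 carried 1 gene symbol, 932 several and 9160 none here. Each of the 18193 genes was read by the probe set that had the highest SD on the 21 arrays, which favours the probe set that varies most, and 9010 genes had more than 1.

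Comparisons used limma 3.58.1 under R 4.3.3 (statmod 1.5.0), with 1 mean per group over all 21 arrays, 14 residual and 1.11 prior degrees of freedom, in 10 comparisons, each adjusted by the Benjamini-Hochberg method. The steps were tested on simulated data. The 9 genes, the pathway and marker lists and the tests were chosen with earlier results of these data known. The named genes are the 9, the called genes of the pathway and marker lists, and for each of the 9 the genes of highest correlation over the arrays among those with an SD of 1 or more. Samples were fitted as unpaired. Residuals of same-numbered arrays correlated at 0.00603 on average over 63 pairs (range -0.35 to 0.39), which shows no pairing on average but cannot exclude it. The split into batches is inferred from the bioC controls, since the labels name no batch. Alternatives were a replicate block, a batch block, fits within a batch, only the arrays compared, array weights, trend and robust moderation, other choices of probe set, centred arrays, a range filter, a threshold of 2, and leaving out each array. Leaving out the 3 arrays that stood apart, and taking replicate 1 alone for wild type RA cells, were added after the data were seen. The labels call the samples biological replicates and do not say whether lines are single clones.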

Additional observations from a re-analysis of the deposited data

Results flagged for a closer look

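The difference between RA and FGF8 differed between the Nkx2.2 line and wild type cells for 3 of the 9 genes, by limma's interaction term adjusted over 18193 genes. For Cyp26b1 the interaction was 3.80 log2 units (adjusted p = 0.00259): its arrays read -0.25, 0.055 and 0.014 in the Nkx2.2 line under RA, against -0.27, 0.035 and -0.35 under FGF8, and 0, 0.001 and 0.41 in wild type RA cells, against 4.76, 2.33 and 4.31 in wild type FGF8 cells. For Rarb it was -6.42 (adjusted p = 0.00275), and Rarb was higher in wild type RA than in wild type FGF8 cells on all arrays while its arrays overlapped in the Nkx2.2 line. For Tgm2 it was -4.39 (adjusted p = 0.0357). With wild type RA cells represented by replicate 1 alone the values were 3.93 for Cyp26b1 (adjusted p = 0.0102), -6.80 for Rarb (adjusted p = 0.00938) and -2.26 for Tgm2 (adjusted p = 0.272). Day 8 and RA cannot be told apart in wild type cells. Line and SHH may not be separable either, since the labels of wild type cells differ on SHH.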

How the results depend on the processing

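Of the values for called genes, 219 stayed past the threshold with the same direction when 1 array was left out and 39 did not, and over the other settings 408 stayed and 61 did not. The rises of Cyp26a1, Cyp26b1 and Dhrs3 in the Olig2 line against wild type RA cells held under every alternative whose fit held the gene. Dhrs3 was absent from the fit on probe sets without a name suffix. Each of the 3 enzymes has 1 probe set, so the mean of all probe sets left their values unchanged. The cause of the changes below was not tested, except that fewer arrays were in some fits.

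The number of the 9 genes called moved by more than 1.5 times in these cases. With array weights it was 6 in the Lmx1a line at day 10 and 7 in the Nkx2.2 line, both against wild type FGF8 cells (3 and 4 in the reported fit), 2 for RA against FGF8 in the Nkx2.2 line (1), 5 in the interaction (3) and 4 in the Lmx1a line at day 10 against the Nkx2.2 line (1). With probe sets without a name suffix, which leaves out Dhrs3, Crabp1 and Tgm2, it was 1 in the Lmx1a line and 2 in the Nkx2.2 line against wild type FGF8 cells, and 1 for day 14 against day 10 (2). Within batch B it was 2 in the Nkx2.2 line against wild type FGF8 cells, 3 in the Olig2 line against wild type RA cells (6), 0 for RA against FGF8 in the Nkx2.2 line and 2 in wild type cells (7). With only the arrays compared it was 1, 2, 0 and 3 for the Nkx2.2 line against wild type FGF8 cells, the Nkx2.2 line against wild type RA cells (5), RA against FGF8 in the Nkx2.2 line and in wild type cells. Without the 3 arrays that stood apart it was 2 in the Nkx2.2 line against wild type FGF8 cells and 2 in the Lmx1a line at day 10 against the Nkx2.2 line. With replicate 1 alone for wild type RA cells it was 3 in the Nkx2.2 line against wild type RA cells and 2 for wild type RA against wild type FGF8 cells.

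Leaving out 1 array gave 2 to 3 called genes in the Lmx1a line and 2 to 4 in the Nkx2.2 line against wild type FGF8 cells, 4 to 6 in the Nkx2.2 line and 4 to 5 in the Olig2 line against wild type RA cells, 2 to 3 for day 14 against day 10, 1 for RA against FGF8 in the Nkx2.2 line, 4 to 7 for RA against FGF8 in wild type cells, 2 to 3 in the interaction, 1 to 2 in the Lmx1a line at day 10 against the Nkx2.2 line, and 8 in the Olig2 line against the Nkx2.2 line under RA. The lowest value for RA against FGF8 in wild type cells, 4, came without replicate 2 of wild type RA cells. The value of 2 for the Nkx2.2 line against wild type FGF8 cells came without replicate 3 of wild type FGF8 cells, and the 2 for the Lmx1a line at day 10 against the Nkx2.2 line without replicate 2 of the Nkx2.2 line.

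With the replicate block, Stra6 was not called in wild type RA against wild type FGF8 cells (1.92, adjusted p = 0.0538) or in the Nkx2.2 line under RA against wild type RA cells (-1.62, adjusted p = 0.0595), nor was the interaction of Tgm2 (-4.39, adjusted p = 0.0517), and the block changed no other call of the 9 genes. Values that turned sign, none of them called, were Tgm2 with replicate 1 alone for wild type RA cells, at 1.01 in the Nkx2.2 line under RA and 1.31 in the Olig2 line, both against wild type RA cells, and RA minus FGF8 in the Nkx2.2 line for Cyp26a1, at -0.00509 with array weights and between -0.034 and 0.051 when 1 array was left out (-0.034 without replicate 1 under RA), and for Cyp26b1, at -0.00843 with array weights.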
